A study of Mus musculus with 8 samples.

Results

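The genes described here encode the natriuretic peptides Nppa, Nppb and Nppc, their receptors Npr1, Npr2 and Npr3, the processing proteases Corin and Furin, and the degrading peptidase Mme. They were taken as the rows of the expression table whose platform gene symbol is one of these 9 names. Each gene matched 1 row, so 9 of 22206 rows are described. The table holds 8 arrays of left ventricular RNA from male C57/BL6J mice aged 8 weeks, none of them treated. Of these, 4 are from wild type mice and 4 from mice that overexpress microRNA-100 (miR-100) in a heart-specific manner, on Affymetrix arrays. The labels do not state that each array is a separate mouse, and an array is called a heart here. The sources used here give neither the promoter that drives the microRNA nor the founder lines and litters.

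Natriuretic peptides are hormones that lower blood pressure and blood volume. Heart muscle makes ANP (from Nppa) and BNP (from Nppb) as longer precursors, which Corin and Furin cut into active peptides, whereas CNP (from Nppc) is mainly a local signal of vessels and bone. ANP and BNP act through Npr1, and CNP through Npr2. Both receptors are guanylyl cyclases that raise cyclic GMP inside the target cell, while Npr3 lacks the cyclase and clears the peptides from the circulation together with the peptidase neprilysin, the product of Mme. In the adult mouse ANP is made chiefly in the atria, and the ventricle raises both cardiac peptides under load.

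The raised microRNA is shown first, with its seed, bases 2 to 8, in capitals. The labels do not say which arm was meant, and the 5p arm is printed from RefSeq (GRCm38.p6, chr9:41531437-41531458, plus strand).
mmu-miR-100-5p: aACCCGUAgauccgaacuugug

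The cardiac peptide genes Nppb and Nppa lie in this order on chromosome 4, both on the plus strand, with 14822 bases between their RefSeq starts and 0 measured genes between them. Since they were the members with the largest differences, and in the same direction, the 250 bases upstream of each start are printed from RefSeq (GRCm38.p6, chr4:147985650-147985899 for Nppb and chr4:148000472-148000721 for Nppa). Capitals mark GATAA, the core bound by GATA factors such as Gata4, or its reverse complement TTATC.
Nppb: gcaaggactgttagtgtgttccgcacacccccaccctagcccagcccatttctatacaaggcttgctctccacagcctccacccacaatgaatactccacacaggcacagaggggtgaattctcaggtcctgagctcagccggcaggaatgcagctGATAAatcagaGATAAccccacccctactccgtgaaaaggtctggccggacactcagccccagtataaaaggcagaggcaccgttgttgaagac
Nppa: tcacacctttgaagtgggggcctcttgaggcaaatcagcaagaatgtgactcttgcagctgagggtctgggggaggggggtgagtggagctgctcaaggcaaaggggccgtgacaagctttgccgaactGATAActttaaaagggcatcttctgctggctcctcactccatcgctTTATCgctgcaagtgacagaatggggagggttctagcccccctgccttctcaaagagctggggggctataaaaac

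Both windows held 2 matches to GATAA over both strands. Counted from the start, with -1 for the base before it, they began at -94 and -83 in Nppb and at -121 and -75 in Nppa. Of 32851 promoter windows of the same length, 22.6% held 1 match or more and 4.28% held 2 or more. All 9 genes had a promoter window, 12 windows in all, and the windows of the other 7 genes had 0 matches. TATAAA, searched on both strands, occurred 1 time in each of the Nppa, Nppb and Nppc windows and in a Furin window, against 12.4% of all windows. CATTCC, the element bound by TEAD factors, lay in the Nppb window and in an Mme window, against 12.6% of all. TNAAGTG, an element bound by NKX2-5, lay in the Nppa window and in a Furin window, against 10.1% of all. The strict CArG box of serum response factor, CCWWWWWWGG with W for A or T, lay in 0 of the 12 windows, against 1.47%. Sites that differ from this pattern by a base were not counted, so a looser CArG box is not excluded. A match describes the letters alone.

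The cardiac peptide genes were higher and the neprilysin gene lower in the miR-100 hearts, while the receptors and the processing proteases differed little. Levels are log2 signals, on which a difference of 1 is a doubling, and every difference is the miR-100 mean less the wild type mean, given with the standard error (SE) of limma, a linear model fitted over all rows. In limma 0 of the 9 genes passed an adjusted p of 0.05, which 0.14% of all rows did (31 of 22206), 0.0946% higher and 0.045% lower. At an unadjusted p under 0.05 there were 2 higher genes, Nppa and Nppb, and 1 lower gene, Mme, against 3.55% of all rows that were higher and 4.17% that were lower at this level, 7.73% in all. In these same 3 genes the 4 values of each group did not overlap, against 2.21% of all rows for higher and 2.33% for lower, 4.54% in all. Without miR-100 overexpressing replicate 4 there were 2 lower genes at an unadjusted p under 0.05, Nppc being the other. Of the 9 genes 5 had a difference above 0, as did 46.9% of all rows, and the median was 0.03, against -0.015 over all rows. The members were chosen with results of these arrays known, so these counts are a description.

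**Figure D1:**
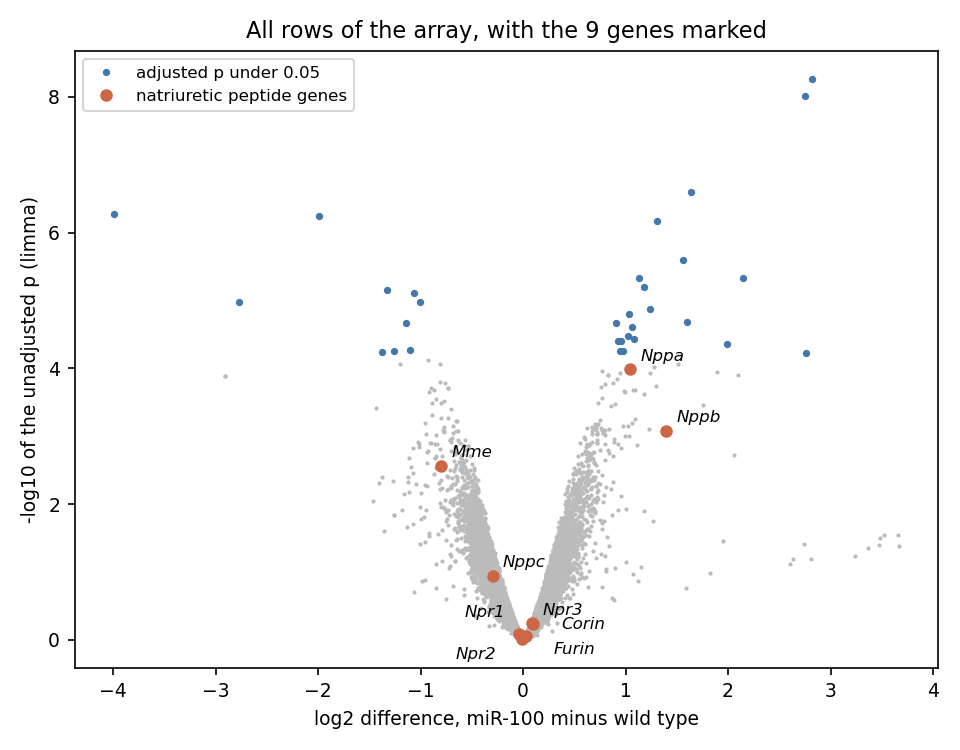
Log2 difference between miR-100 and wild type hearts (x axis) against -log10 of the unadjusted limma p (y axis) for 22206 rows, in grey. Blue points are the 31 rows with an adjusted p under 0.05, and orange points are the 9 natriuretic peptide genes, of which Nppa (1.04), Nppb (1.40) and Mme (-0.80) stand away from the centre.

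Nppa, the precursor of ANP, had log2 signals of 17.53, 17.15, 17.04 and 17.54 in wild type replicates 1 to 4. The miR-100 hearts had 18.76, 18.07, 18.11 and 18.48. Every miR-100 heart lay above every wild type heart. The means were 17.31 ± 0.26 and 18.36 ± 0.33 (SD, n = 4 each), a 2.06-fold higher signal. The difference of 1.04 (SE 0.19, 95% confidence interval 0.63 to 1.45) had an adjusted p of 0.0616 in limma and ranked 37th of all rows by p. The signal lay at percentile 99.7 of all row means, where the highest value in the table is 19.93.

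Nppb, the precursor of BNP, had 11.81, 10.41, 10.73 and 11.58 in wild type replicates 1 to 4. In the miR-100 hearts the values were 12.05, 13.34, 12.51 and 12.22. The groups did not overlap, although wild type replicate 1 came close to the lowest miR-100 heart, replicate 1. Means of 11.13 ± 0.67 and 12.53 ± 0.57 (SD, n = 4 each) correspond to a 2.63-fold higher signal. The difference was 1.40 (SE 0.32, 95% confidence interval 0.70 to 2.10, limma adjusted p = 0.176).

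**Figure D2:**
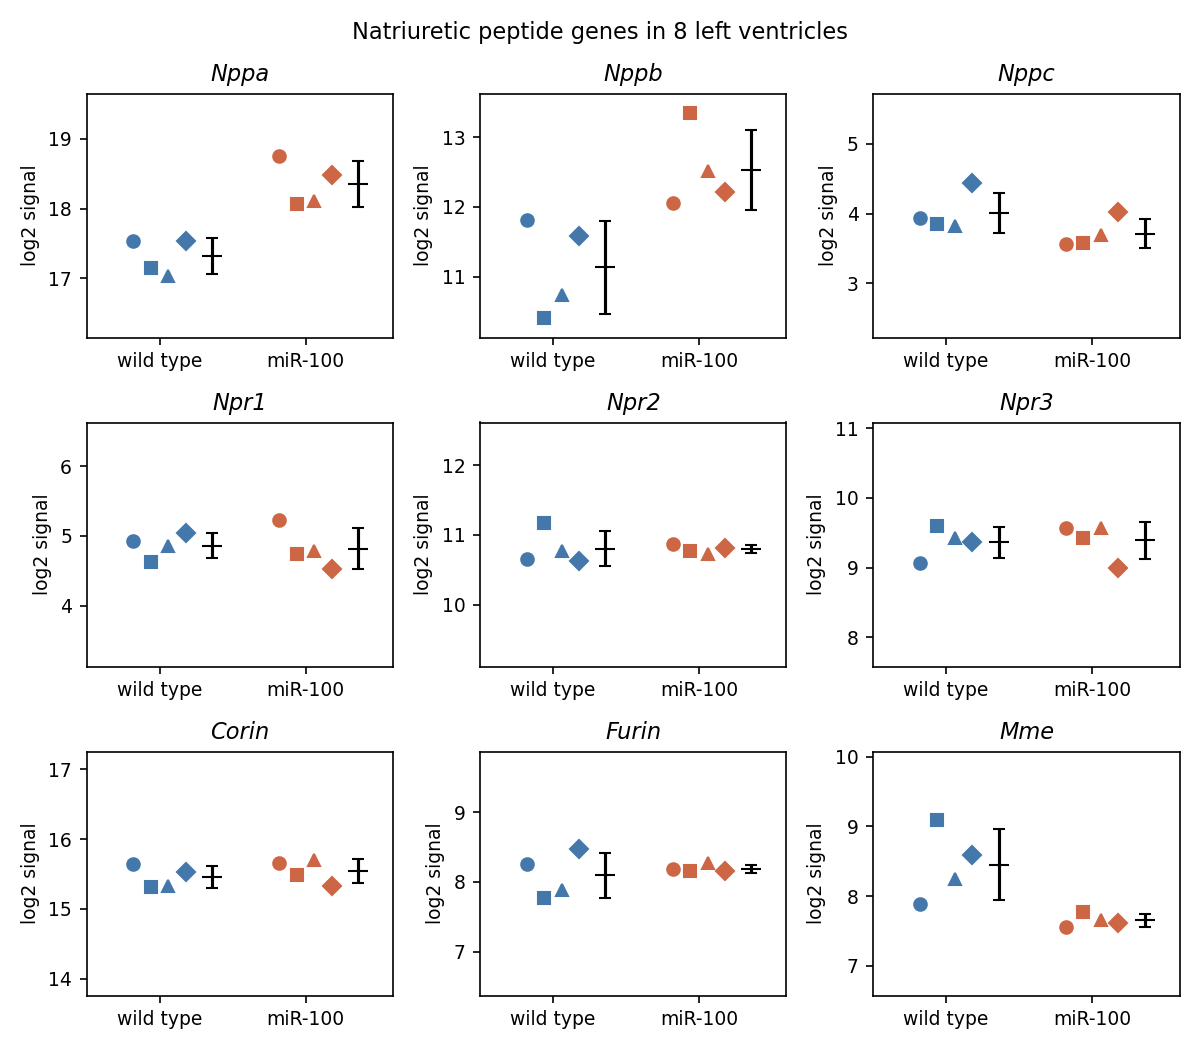
Log2 signal of the 9 genes on each array, wild type in blue and miR-100 overexpressing in orange, with circle, square, triangle and diamond for replicates 1 to 4 and black bars for the mean and SD of 4 arrays. All panels span the same range in log2 units. Nppa and Nppb are higher and Mme lower with no overlap, and Mme is spread from 7.89 to 9.09 in wild type but from 7.56 to 7.78 in the miR-100 group.

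The group difference was not shown to be larger for one cardiac peptide gene than for the other. The log2 difference Nppb minus Nppa averaged -6.18 ± 0.44 over the wild type hearts and -5.82 ± 0.86 over the miR-100 hearts (SD of 4 each), so the group difference of Nppb exceeded that of Nppa by 0.36. A two-sided exact permutation test over 70 assignments gave p = 0.486, where the smallest possible p is 0.0286. The excess was -0.01 without miR-100 overexpressing replicate 2, the heart with the highest Nppb. Within the groups the hearts were not ordered alike by these genes. In wild type, replicates 1 and 4 had the higher values of both. In the miR-100 group, replicate 1 had the highest Nppa and the lowest Nppb, and replicate 2 the lowest Nppa and the highest Nppb.

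**Figure D3:**
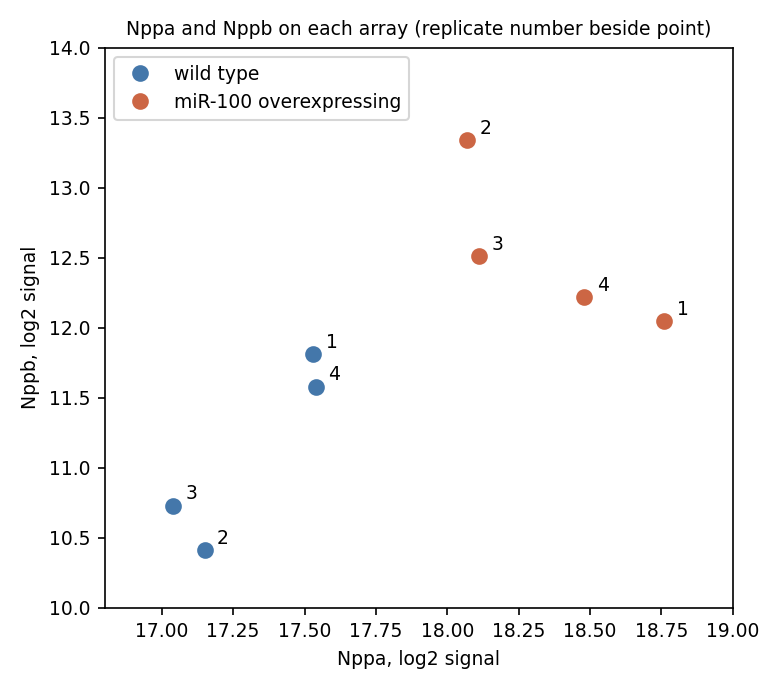
Log2 signal of Nppb (y axis) against Nppa (x axis) on the 8 arrays, with the replicate number beside each point. The wild type hearts reach at most 17.54 for Nppa and 11.81 for Nppb, and among the miR-100 hearts the highest Nppa (18.76) goes with the lowest Nppb (12.05).

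Genes that lie beside Nppb and Nppa on the chromosome were compared next, to see whether the difference extended along the locus. Of the 5 measured genes to each side, 0 passed the threshold and 0 had an unadjusted p under 0.05 (limma). Of all rows, 0.14% and 7.73% did, so counts of 0 in so few genes are near that share. There was 1 higher gene at this level without wild type replicate 2. There was 1 lower gene without miR-100 overexpressing replicate 2 or 3. Their differences lay from -0.31 to 0.29 with a median of 0.01. Clcn6, a chloride transporter gene and the next measured gene after Nppa, had log2 signals of 5.90 ± 0.30 in wild type and 6.01 ± 0.36 in the miR-100 group (SD, n = 4 each) and differed by 0.11, with 95% confidence interval -0.33 to 0.55. The next gene before Nppb, 2510039O18Rik, differed by -0.19 (95% confidence interval -0.64 to 0.26). Plod1, a collagen lysyl hydroxylase gene, differed by 0.17, and Mfn2, which encodes a mitochondrial fusion protein, by -0.13. Agtrap, which encodes a protein bound to the angiotensin receptor, differed by 0.29 and Mad2l2 by -0.31. Miip, Fv1, Draxin and Fbxo6 had differences of -0.26, -0.04, 0.06 and 0.09.

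**Figure D4:**
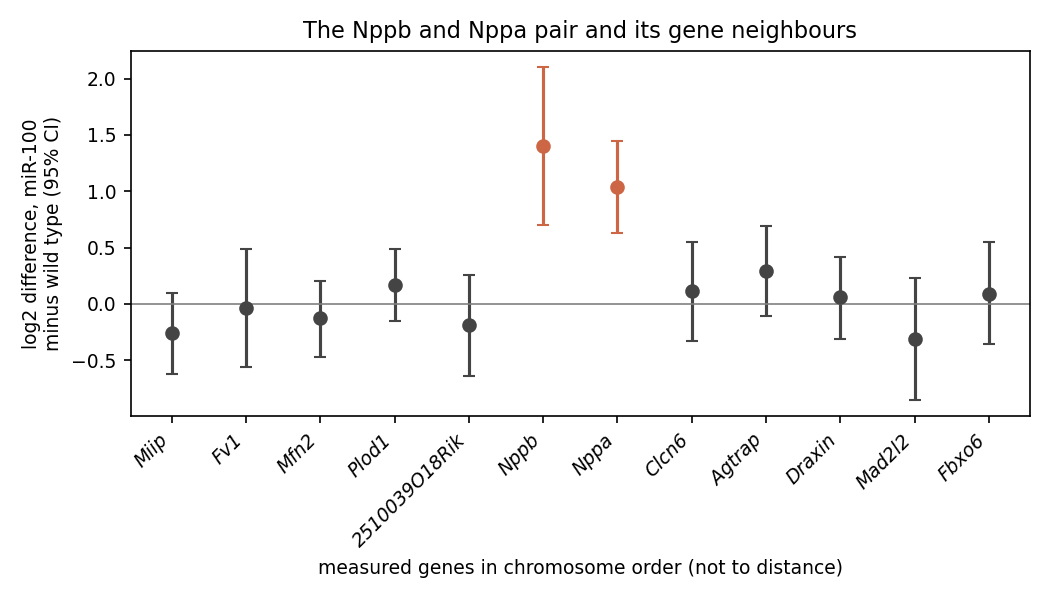
Log2 difference between miR-100 and wild type hearts with 95% confidence intervals from limma (y axis) for Nppb and Nppa, in orange, and the 5 measured genes to each side, in chromosome order and not to distance. Only the intervals of Nppb and Nppa among these 12 genes lie wholly above 0.

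Nppc, the precursor of CNP, was dim, at percentile 17.5 of all row means. Its signals were 3.94, 3.85, 3.82 and 4.44 in wild type and 3.57, 3.58, 3.69 and 4.02 in the miR-100 group. The groups overlapped through replicate 4 of the miR-100 group. The difference was -0.30 (95% confidence interval -0.68 to 0.08, limma adjusted p = 0.739), which moved to -0.15 without wild type replicate 4 and to -0.40 without miR-100 overexpressing replicate 4.

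The processing proteases were measured well above the middle of the table and did not differ beyond the spread. Corin, a membrane protease of heart muscle that cuts the ANP precursor, had 15.64, 15.32, 15.33 and 15.53 in wild type and 15.66, 15.48, 15.70 and 15.33 in the miR-100 group. The groups covered nearly the same range, and the difference was 0.09 (95% confidence interval -0.23 to 0.41). Furin, a convertase of the secretory pathway that cuts the precursors of BNP and CNP, had 8.26, 7.77, 7.89 and 8.47 in wild type. In miR-100 hearts it was 8.19, 8.15, 8.27 and 8.15, inside the wild type range, with a difference of 0.09 (95% confidence interval -0.27 to 0.46).

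Among the receptors, none passed the threshold (0 of 3 in limma, and 0 at an unadjusted p under 0.05, against 0.14% and 7.73% of all rows). Npr1, the receptor of ANP and BNP, had 4.92, 4.62, 4.85 and 5.04 in wild type and 5.23, 4.74, 4.78 and 4.52 in the miR-100 group. The groups overlapped fully, with a difference of -0.04 (95% confidence interval -0.41 to 0.33). It stood at percentile 38.5 of row means, so the row was dim. Npr2, the CNP receptor, had 10.65, 11.17, 10.77 and 10.62 in wild type and 10.87, 10.77, 10.73 and 10.81 in the miR-100 group, a difference of -0.01 (95% confidence interval -0.34 to 0.33). Wild type replicate 2 gave the highest Npr2 value, and without it the difference was 0.12. Npr3, the clearance receptor, had 9.06, 9.60, 9.42 and 9.37 in wild type and 9.57, 9.43, 9.56 and 9.0 in the miR-100 group, with overlapping groups and a difference of 0.03 (95% confidence interval -0.35 to 0.40).

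Mme, which encodes the peptidase neprilysin that degrades ANP and CNP, was lower in the miR-100 hearts. Wild type replicates 1 to 4 had 7.89, 9.09, 8.24 and 8.59, and the miR-100 hearts 7.56, 7.78, 7.66 and 7.61. Every miR-100 value lay below every wild type value, and the wild type group was spread more widely, with 8.45 ± 0.51 against 7.65 ± 0.09 (SD, n = 4 each). The difference of -0.80 (SE 0.22, 95% confidence interval -1.27 to -0.33) was a 1.74-fold lower signal and did not pass, with an adjusted p of 0.278 in limma. In whole tissue, fewer cells of a type and less RNA per cell cannot be told apart. Mme is also made by fibroblasts and neutrophils. Fibroblast markers had mean log2 levels from 9.87 to 10.24 in wild type and from 9.74 to 10.13 in the miR-100 group, with 3 of 6 above 0. Neutrophil markers were dim, from 4.07 to 4.43 and from 3.96 to 4.19, with 0 of 4 above 0. Their part in the difference of Mme was not tested.

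The first principal component of all rows separated the groups, with every wild type heart negative and every miR-100 heart positive. Replicate 2 of each group lay furthest out at its end. Wild type replicate 2 was at -38.2 (other wild type hearts -12.99 to -3.49), and it had the highest Mme and the lowest Nppb of the 8 hearts. miR-100 overexpressing replicate 2 was at 30.84 (others of its group 8.96 to 13.51), and it had the highest Nppb. Without the wild type heart the differences were 0.99 for Nppa, 1.16 for Nppb and -0.59 for Mme, with limma adjusted p of 0.171, 0.338 and 0.368. Without the miR-100 heart they were 1.14, 1.13 and -0.84, with limma adjusted p of 0.0668, 0.357 and 0.398. Over the 8 fits that each left out an array, Nppa ran from 0.91 to 1.14, Nppb from 1.13 to 1.62 and Mme from -0.99 to -0.59, and 0 of these fits gave any of the 9 genes an adjusted p under 0.05. Nppa did pass among the rows above the 50th percentile, at an adjusted p of 0.04 in limma, and at 0.00488 with an intensity trend in the moderation. With a lower percentile filter, which left out fewer dim rows, Nppa did not pass (limma adjusted p = 0.0577).

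Other convertases and peptidases that act on these peptides, or on Corin, were taken as a list of 8 genes that includes the Npr3 ligand Ostn. Of these, 0 passed in limma, 0 were higher and 1 lower at an unadjusted p under 0.05 (3.55% and 4.17% of all rows), and the median was -0.06, against -0.015 over all rows. Ide, the insulin-degrading enzyme, which also cuts ANP, had 14.04, 14.62, 13.55 and 14.13 in wild type and 12.97, 13.87, 12.98 and 13.05 in the miR-100 group. Only miR-100 overexpressing replicate 2 reached into the wild type range. The difference was -0.87 (SE 0.24, limma adjusted p = 0.306), and it was -0.69 without wild type replicate 2 and -1.08 without miR-100 overexpressing replicate 2. Without miR-100 overexpressing replicate 4 the list had 2 lower genes. Pcsk6, the convertase that activates Corin, differed by -0.14 (SE 0.28), Pcsk7 by -0.21 and Ostn by -0.10. Mep1b, which encodes a meprin subunit, differed by 0.26, Pcsk5 by 0.03 and Dpp4 by -0.01. Mep1a was dim, with means of 3.47 and 3.46.

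Downstream of the receptors, 23 of 25 genes of cyclic GMP synthesis, breakdown and action were measured, and 0 passed in limma. At an unadjusted p under 0.05, 2 were higher and 1 lower, against the 3.55% and 4.17% of all rows, with a median difference of 0.03. Prkg1, the cyclic GMP-dependent kinase that carries much of the hormones' effect on smooth muscle and heart, had 8.34, 7.88, 7.79 and 8.39 in wild type. Its values in the miR-100 group were 7.20, 7.34, 7.41 and 7.07. All miR-100 hearts lay below all wild type hearts, and the difference of -0.84 (SE 0.17, 95% confidence interval -1.22 to -0.47) had an adjusted p of 0.0958 in limma. It ran from -0.95 to -0.75 without single arrays. The list had 3 lower genes when wild type replicate 4, or replicate 2 of the miR-100 group, was left out.

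The higher genes of this list were phosphodiesterases, which break down cyclic nucleotides. Pde3b, an enzyme inhibited by cyclic GMP, had means of 5.62 ± 0.18 in wild type and 6.21 ± 0.33 in the miR-100 group (SD, n = 4 each) and differed by 0.59 (SE 0.18, limma adjusted p = 0.348). Pde1c, a calcium-dependent enzyme of heart muscle, differed by 0.47 (SE 0.16, limma adjusted p = 0.433). In both the groups did not overlap. Pde5a, Pde9a and Pde2a, which also break down cyclic GMP, differed by 0.13, 0.02 and 0.26, and the third of these had the next lowest p among the higher genes. The other phosphodiesterases of the list, Pde1a, Pde3a and Pde10a, differed by 0.10, 0.06 and -0.16. Prkg2 and the inducible nitric oxide synthase gene Nos2 differed by -0.30 and -0.49. The soluble guanylyl cyclase subunits Gucy1b1 and Gucy1a2, which answer to nitric oxide and not to the peptides, differed by -0.09 and 0.10.

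**Figure D5:**
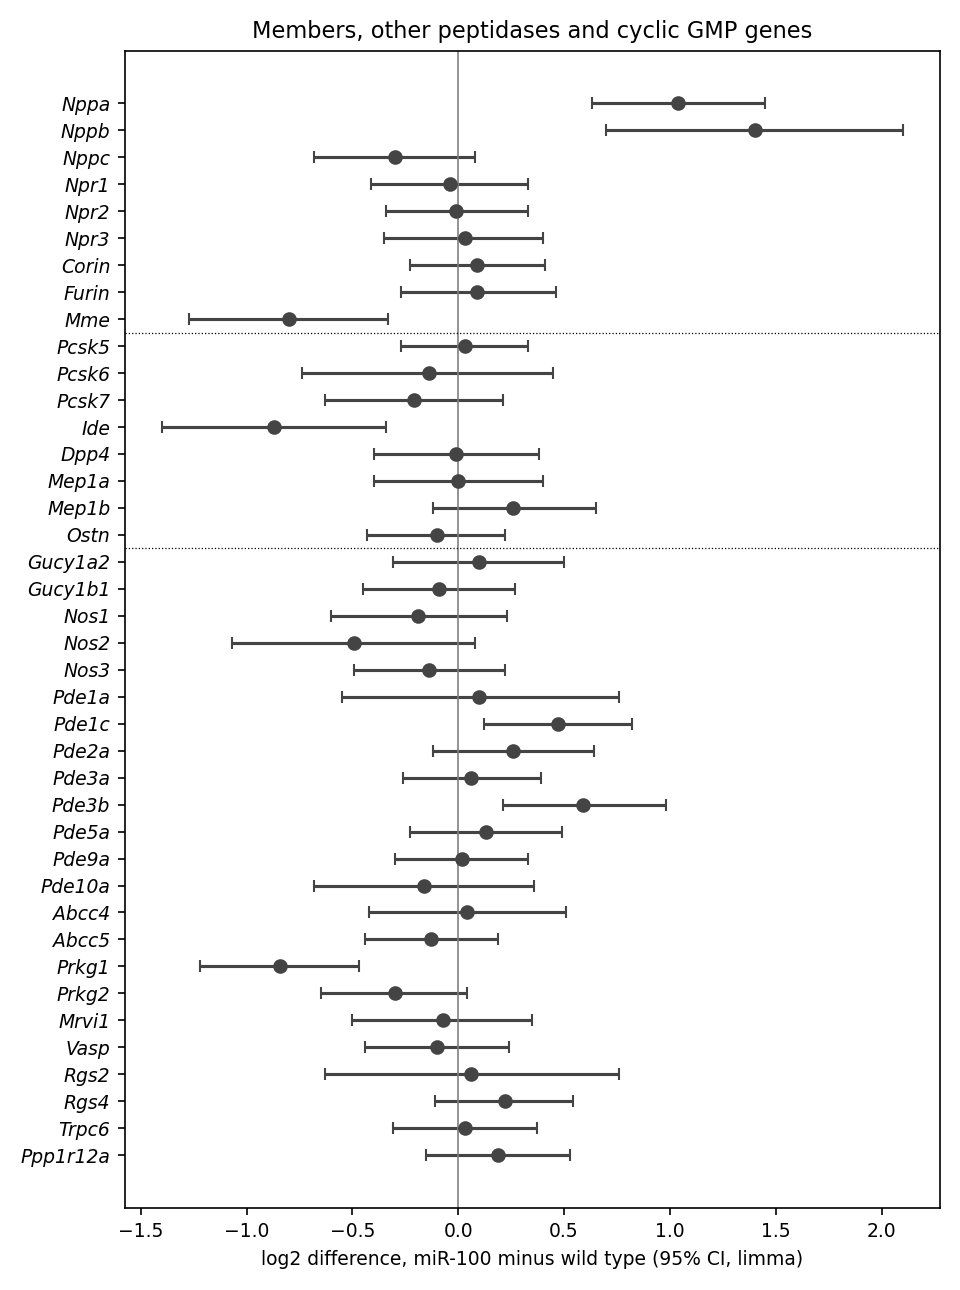
Log2 difference between miR-100 and wild type hearts with 95% confidence intervals from limma (x axis) for the 9 natriuretic peptide genes, the 8 other peptidase and ligand genes and the 23 cyclic GMP genes, separated by dotted lines. The intervals of Nppa, Nppb, Pde1c and Pde3b lie above 0 and those of Mme, Ide and Prkg1 below 0, and none of these genes passed the adjusted threshold.

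Transcription regulators that bind or silence the Nppa and Nppb promoters were measured for 26 of 28 genes. In limma 0 passed, with 0 higher and 3 lower at an unadjusted p under 0.05 (3.55% and 4.17% of all rows), and the median was -0.11, against -0.015 over all rows. Egr1, an immediate early factor, had 8.89, 9.50, 7.56 and 9.76 in wild type and 7.58, 7.91, 7.24 and 7.90 in the miR-100 group. Wild type replicate 3 lay among the miR-100 values, and the difference of -1.27 (limma adjusted p = 0.33) became -1.73 without it (limma adjusted p = 0.024). Without other single arrays Egr1 did not pass, with a limma adjusted p of up to 0.549. Tbx5, a T-box activator of Nppa, had 9.09 ± 0.21 and 8.65 ± 0.12 (SD, n = 4 each), lower by 0.44 with no overlap (limma adjusted p = 0.425). Tead4 differed by -0.34. Highest in the other direction by p were Tbx20 at 0.33, Mrtfa at 0.25 and Srf, the serum response factor, at 0.38. Gata4 differed by 0.12 (95% confidence interval -0.21 to 0.45) and Rest, a silencer of both peptide genes, by -0.08. The lower count of this list was 5 when wild type replicate 2 was left out, and 2 without wild type replicate 1, 3 or 4 or without miR-100 overexpressing replicate 1, 2 or 3. There was 1 higher gene when wild type replicate 4, or replicate 1 of the miR-100 group, was left out.

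Genes known to follow wall stress in the ventricle were considered beside the peptides, with 15 of 17 measured. Again 0 passed in limma, 2 were higher and 1 lower at an unadjusted p under 0.05 (3.55% and 4.17% of all rows), and the median was -0.03, against -0.015 over all rows. Ankrd1, a stretch-responsive cofactor, had 17.16, 16.67, 16.76 and 17.54 in wild type and 17.88, 18.24, 17.85 and 18.54 in the miR-100 group, with no overlap. Its difference of 1.09 (SE 0.22) had a limma adjusted p of 0.0787, and of 0.0118 with an intensity trend. Without single arrays the limma adjusted p ran from 0.0427, without wild type replicate 4, to 0.24. No other of these fits passed. Rcan1, a calcineurin target, differed by 0.58 with no overlap and Ccn2, a matrix growth factor gene, by 0.62 with overlap. Xirp2, an actin-binding protein gene of the cell junction, differed by -0.35, Myh7, the beta myosin heavy chain, by -0.38 and Csrp3 by -0.13. Acta1, the skeletal actin gene, differed by 0.07 (95% confidence interval -0.47 to 0.61). The list had 3 higher genes when wild type replicate 1, or replicate 4 of the miR-100 group, was left out, and 0 lower genes without wild type replicate 1 or 3 or without miR-100 overexpressing replicate 1, 2 or 3. Edn1 and Mybphl of this list also stand in the vasoactive hormone list and among the atrial markers.

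The closest profiles over the 8 arrays were found by the root mean square difference of log2 values after each row's mean was removed, among 18588 other named rows. For Nppa they were Rasl2-9 at 0.194, Phka2 at 0.224, Hk1 at 0.236, Dync2li1 at 0.244 and Hspb3 at 0.245. Of these, Hk1 passed in limma (adjusted p = 0.0369) and the others did not. Phka2 encodes a phosphorylase kinase subunit, Hk1 a hexokinase and Hspb3 a small heat shock protein. A row with no variation would lie at 0.579 from Nppa, and Nppb lay at 0.619, at rank 8716. For Nppb the closest were Cd44, a hyaluronan receptor, at 0.455, Vcpkmt at 0.468, Ankrd1 at 0.470, Ifi208 at 0.498 and Tspan18 at 0.506, against 0.883 for a row with no variation. Nppa ranked 81 for Nppb. Closeness was measured over both groups, so that these genes share the group difference largely follows from how they were selected. It ran from 0.63 for Dync2li1 to 1.08 for Hk1 in the first set. In the second it ran from 0.69 for Tspan18 to 1.09 for Ankrd1.

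Marker genes of heart muscle were read beside the ventricular label. All 8 genes of the ventricular list lay above the median row. Their mean log2 levels ran from 18.63 to 18.71 in wild type and from 18.57 to 18.66 in the miR-100 group. Several, such as Myh6, Tnnt2 and Actc1, are genes of all heart muscle, so their level cannot tell ventricle from atrium. Myl3 was lower by 0.27 with no overlap (limma adjusted p = 0.689), as 2.33% of all rows were lower without overlap. Atrial muscle, where Nppa is most abundant, has its own markers, and 2 of these 9 were above 0 and 7 below. Their mean log2 level ran from 6.41 to 6.52 in wild type and from 6.21 to 6.38 in the miR-100 group. In limma 0 of them passed. At an unadjusted p under 0.05 there were 0 higher and 1 lower (3.55% and 4.17% of all rows). The lower gene was Dkk3, at -0.40 with overlapping groups (limma adjusted p = 0.568). Myl4, the atrial light chain gene, differed by -0.26. Of the 9 atrial markers 4 lay above the median row, namely Myl4, Nr2f2, Stard10 and Kcna5. The last 3 of these differed by -0.30, 0.10 and -0.10. Dkk3, Sln, Myl7, Bmp10 and Mybphl lay below it, and the last 4 of these differed by -0.01, -0.40, 0.09 and -0.03. Conduction system markers, which include cells that keep Nppa on, had 3 of 8 above 0 and levels from 7.13 to 7.30 and from 6.88 to 7.22. At an unadjusted p under 0.05, 0 were higher and 2 lower (3.55% and 4.17% of all rows). These were Etv1, which differed by -0.43 with no overlap, and Cntn2, by -0.51 with overlap (limma adjusted p = 0.404 and 0.571).

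Markers of other cell types had 0 genes past the adjusted threshold in limma. At an unadjusted p under 0.05, Tmem108 and Plvap were higher, 2 of 6 endocardial markers. Of 8 smooth muscle and pericyte markers 1 was higher, Acta2, and 1 lower, Kcnj8. Of 4 neutrophil markers 1 was lower, S100a8. The endothelial, fibroblast, macrophage and lymphocyte lists had 0. Of all rows 3.55% were higher and 4.17% lower at this level. Of 6 endocardial markers 3 were above 0 (median 0.09), with Tmem108 at 0.62 and Plvap at 0.57, and levels ran from 7.07 to 7.37 in wild type and from 7.33 to 7.42 in the miR-100 group. Of 7 endothelial markers 2 were above 0 (median -0.06), of 6 macrophage markers 3 (median -0.01) and of 5 lymphocyte markers 3 (median 0.09). In 8 smooth muscle and pericyte markers 4 were above 0, and Acta2, the smooth muscle actin gene, had 12.86, 12.71, 12.72 and 12.61 in wild type and 13.74, 14.01, 14.66 and 12.94 in the miR-100 group. Its difference of 1.11 had a limma adjusted p of 0.203, and 0.0442 without miR-100 overexpressing replicate 4. Without other single arrays Acta2 did not pass, with a limma adjusted p of up to 0.398. Myh11 and Tagln, also of smooth muscle, differed by -0.06 and -0.19, and the pericyte gene Kcnj8 by -0.31. S100a8, of neutrophils, differed by -0.37. The part of these cell types in the differences of Nppa, Nppb, Mme and Prkg1 was not tested.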

How the data were processed

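The authors deposited log2 signals, 1 per array row. The submitters' processing notes name Transcriptome Analysis Console 4.0. Summarization, normalization and genome build are not given in the sources used here. Array medians lay between 5.70 and 5.74, and the values were used as deposited. Rows were named through the platform annotation (19572 of 22206 rows have 1 symbol, 0 several and 2634 none), and list genes also through RefSeq synonyms of GRCm38.p6. Each measured gene of the lists had 1 row.

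Groups were compared with limma 3.58.1 in R 4.3.3 by moderated linear models without covariates, over all rows, with Benjamini-Hochberg adjustment and a threshold of 0.05. The method was tested on simulated data. The labels number the replicates without saying more of their origin, so p-values reflect the spread among 8 arrays, which may be technical. The number of arrays limits precision, and an array level is not comparable between genes. The members and lists were chosen with earlier results of these data known. Named are the members, the neighbours of Nppa and Nppb, the 5 closest profiles of each, from each pathway list up to 3 genes in each direction with the lowest p, and marker genes where their list is described. Others were named after their values were seen. Alternatives changed the moderation, weights, normalization, filter, rows, replicate block and arrays included.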

Additional observations from a re-analysis of the deposited data

How the results depend on the processing

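Nppa, Nppb, Corin and Mme kept their direction in every alternative run, and Nppc in those that kept its row, which the 25th and 50th percentile filters removed. With an intensity trend 65 rows of the table passed in place of 31. Nppa, at 1.04 in each case, then passed (limma adjusted p = 0.00488), as it did among rows above the 50th percentile (0.04) and with the replicate block (0.0466), and 1 wall stress gene, Ankrd1, passed with the trend. Values close to 0 turned their sign, namely Npr1 at 0.0 with quantile normalization and Npr2 at 0.03 with array weights. Leaving out single arrays, the rows that passed ran from 11 to 27, with 15 without wild type replicate 2 or 3, 12 when miR-100 overexpressing replicate 1 was left out and 11 for its replicates 3 and 4. In these fits Npr1 ran from -0.18 to 0.06, Npr2 from -0.07 to 0.12, Npr3 from -0.07 to 0.16, Furin from -0.02 to 0.22 and the excess of Nppb over Nppa from -0.01 to 0.65. The counts of promoter regulators (Egr1 without wild type replicate 3), wall stress genes (Ankrd1 without wild type replicate 4) and smooth muscle markers (Acta2 without miR-100 overexpressing replicate 4) ran from 0 to 1. The cause was not tested.

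The replicate numbers gave no sign of pairing. Deviations of same-numbered samples correlated from -0.06 to 0.066, and 3 of 8 samples correlated best with their own number. With the replicate block 21 rows passed, Nppb had an adjusted p of 0.299 and the excess of Nppb over Nppa stayed at 0.36. The files used give no background level, so signal over background was not assessed for dim rows such as Nppc and Npr1.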

Other observations

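Genes of the renin-angiotensin system and other vasoactive hormones, which act against or beside the natriuretic peptides on vessel tone and salt balance, were measured for 16 of 19 genes. In limma 0 passed, and 0 were higher and 2 lower at an unadjusted p under 0.05 (3.55% and 4.17% of all rows), with a median difference of -0.06, against -0.015 over all rows. Ednrb, an endothelin receptor, had 11.16, 11.17, 11.18 and 11.26 in wild type and 10.77, 11.08, 10.74 and 10.92 in the miR-100 group. The groups did not overlap, and the difference was -0.31 (SE 0.14, limma adjusted p = 0.618). Hsd11b2, which inactivates glucocorticoids, was dim and differed by -0.39. Agt, the precursor of angiotensin, differed by 0.18, and Edn1 and Adm, the genes of endothelin and adrenomedullin, by 0.09 each. The angiotensin receptor gene Agtr1a had means of 12.83 ± 0.27 in wild type and 12.91 ± 0.19 in the miR-100 group (SD, n = 4 each). Ace differed by 0.03 and Ramp2, a subunit of the adrenomedullin receptor, by -0.34. The lower count was 0 without wild type replicate 3 or without miR-100 overexpressing replicate 1 or 3, and 1 without each of the other arrays.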
